A study of Mus musculus with 4 samples.

Results

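The genes described here are pigment and lineage genes of the melanocyte, the pigment cell of skin and hair: Dct, Tyr, Tyrp1, Pmel, Mlana, Mitf, Sox10, Oca2, Slc45a2 and Ednrb. They were chosen by name, and every probe annotated to one of these 10 symbols alone was taken. That gave 13 probes for 9 genes, of 41174 probes and 19532 genes tested in all; no probe was annotated to Mlana, which was not analysed here. Of the 9 genes, 4 had 2 probes (Dct, Mitf, Sox10 and Ednrb) and 5 had 1.

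RNA was measured on 4 two-colour Agilent arrays, each carrying skin of Tsk1/+ mice in Cy3 and a common cell-line reference, which the labels call UMR, in Cy5. Tsk1/+ mice are heterozygous for a mutation of the fibrillin-1 gene and serve as a mouse model of scleroderma. The titles call the animals Tsk1 transgenic. The arrays form 1 group, named by their title numbers 1-1, 1-2, 2-1 and 2-2. There was no wild-type skin, so nothing below is an effect of Tsk1. The labels give no strain, coat colour, age, sex, skin site or hair cycle stage, and do not name the lines in the reference or say whether the 4 samples came from separate animals. P-values therefore measure only the spread between these arrays, which may be technical.

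Melanocytes make melanin inside melanosomes, lysosome-related organelles that are handed on to keratinocytes. Tyrosinase starts the synthesis from tyrosine, and its relatives Tyrp1 and Dct act on later intermediates. Pmel forms the fibrils on which melanin is laid down, and Oca2 and Slc45a2 are melanosome membrane transporters that keep the lumen fit for tyrosinase. Mitf is the basic helix-loop-helix factor that switches on these genes, Sox10 acts upstream of Mitf and with it, and Ednrb, the type B endothelin receptor, is needed for melanoblasts to spread through embryonic skin. In mouse trunk skin most melanocytes sit in hair follicles and make pigment while the hair grows. Sox10 is also a gene of Schwann cells, Ednrb of endothelium and glia, and Mitf of mast cells, osteoclasts and macrophages.

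The data show a split among these genes. The receptor Ednrb, the factor Sox10 and the melanosome matrix gene Pmel stood above the reference on every array. Of the 3 tyrosinase family genes, Tyr lay near 0 and Tyrp1 slightly above 0, and Dct swung from exact 0 to a log2 ratio of 7.07 between arrays and probes. Of the 9 genes, 3 were higher in skin than in the reference (Ednrb, Sox10 and Pmel), at an adjusted p below 0.05 (limma, Benjamini-Hochberg over all genes) with a minimum size of 1 for the mean log2 ratio. Of all 19532 genes, 11% were. None was lower, against 7.51% of all genes, and none had a mean below 0, so none was lower at an unadjusted p below 0.05 either. The median of the 9 means was 0.90, and that of all genes 0.02.

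A positive log2 ratio means skin above reference throughout, on a likely but not stated direction. The labels do not say which channel was the numerator. The 15 cornified epidermis genes, which belong to skin, had median deposited values of -5.45, -5.47, -5.24 and -5.73 on arrays 1-1, 1-2, 2-1 and 2-2, and the signs of all values were turned for that reason. The cornified genes are therefore no result here. Skin carried the same dye on every array, and a dye effect cannot be told apart from a skin effect. A ratio is not a level: a value near 0 does not show that a gene is silent in skin, and ratios of different probes say nothing of which transcript is more abundant. Fewer melanocytes and less RNA per melanocyte cannot be told apart in whole skin.

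Exact zeros and shared values decide what can be read from a pigment probe. Between 21.4% and 29.1% of all probes of an array were listed at exactly 0, and with values that at least 100 probes of the array share to the third decimal, the share reached 45.6% to 54.1%. Such a value is not specific to its probe. A value other than 0 that fewer probes share is called the probe's own, though some other probes can hold it too. Of the 52 values of the 13 pigment probes, 16 (30.8%) were exact zeros and 24 (46.2%) were zeros or shared values. Only 5 pigment probes had a value of their own on all 4 arrays (Tyrp1, Pmel and 1 probe each of Mitf, Sox10 and Ednrb), 4 had one on some arrays (both Dct probes, Tyr and 1 Ednrb probe) and 4 on none (Oca2, Slc45a2 and the second probes of Mitf and Sox10). Over all probes these shares were 43.4% with a value of their own on all arrays and 43.5% on none.

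**Figure D1:**
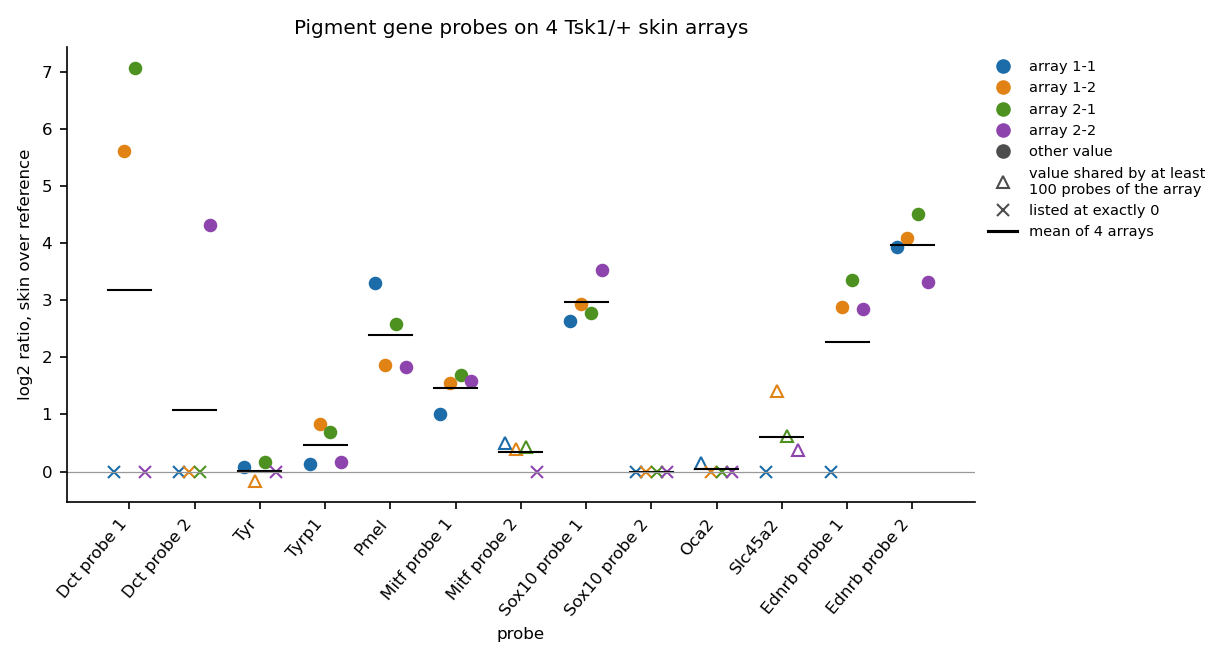
Log2 ratio of skin over reference (vertical axis) for each of the 13 pigment gene probes (horizontal axis), 1 mark for each of the 4 arrays; crosses are values listed at exactly 0, open triangles values shared by at least 100 probes of the array, and bars the mean of 4 arrays. Both Ednrb probes, the first Sox10 probe, Pmel and the first Mitf probe lie above 0 wherever they are not listed at 0, Oca2 and the second Sox10 probe lie at or near 0, and the first Dct probe stands at 5.62 and 7.07 on 2 arrays and at 0 on the other 2.

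The tyrosinase family comes first, because its 3 genes share a run of letters in their promoters while their ratios differed widely. The 250 bases before the annotated start of each gene are given from RefSeq (GRCm38.p6), read 5′ to 3′ on the gene's strand. Dct lies on the minus strand (chr14:118052247-118052496), Tyr on the minus strand (chr7:87493513-87493762) and Tyrp1 on the plus strand (chr4:80833963-80834212). Capitals mark the letters CATGTG, the core of the element through which Mitf is known to act on these 3 promoters, and ACAAAG or ACAATG, letters that Sox factors can bind, each on either strand.
Dct: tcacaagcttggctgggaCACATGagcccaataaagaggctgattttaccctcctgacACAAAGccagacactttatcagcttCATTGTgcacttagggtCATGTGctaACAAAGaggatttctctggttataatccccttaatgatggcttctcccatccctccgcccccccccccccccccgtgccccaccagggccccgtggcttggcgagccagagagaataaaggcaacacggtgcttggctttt
Tyr: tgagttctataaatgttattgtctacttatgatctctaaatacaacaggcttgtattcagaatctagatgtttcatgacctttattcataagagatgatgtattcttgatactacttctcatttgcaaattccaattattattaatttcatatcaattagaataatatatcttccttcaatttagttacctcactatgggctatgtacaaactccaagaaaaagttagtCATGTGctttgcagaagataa
Tyrp1: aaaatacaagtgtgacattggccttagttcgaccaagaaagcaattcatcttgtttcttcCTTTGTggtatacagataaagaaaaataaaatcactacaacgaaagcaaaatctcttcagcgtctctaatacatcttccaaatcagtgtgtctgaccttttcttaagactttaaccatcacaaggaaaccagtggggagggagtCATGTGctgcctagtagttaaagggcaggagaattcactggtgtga
CATGTG begins 150 bases before the start in Dct, with a second match on the other strand at 232, 21 bases before the start in Tyr and 46 bases before it in Tyrp1. All 3 windows hold the same run of 10 letters around it, GTCATGTGCT, found by comparing the 3 windows. That run was present on either strand in 51 of 32851 windows of the same length (0.155%), which belong to 39 genes.

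CATGTG alone was far commoner, in 12.3% of all windows. Among the pigment genes, RefSeq windows were at hand for 6 genes (8 windows, 3 of them for Mitf), and 4 of these 6 genes held CATGTG: Dct, Tyr, Tyrp1 and Oca2, whose match lies 186 bases before the start. ACAAAG or ACAATG was in the windows of Dct, Tyrp1 and Oca2 and in 25.2% of all windows. CACGTG, the other form of the Mitf core, was in none of the 8 and in 6.02% of all. The windows of Ednrb and Mitf held none of the 4 motifs. A match is only a run of letters, and the array data say nothing of binding.

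Dct, dopachrome tautomerase, is the pigment enzyme that is also on in melanoblasts and melanocyte stem cells. Its first probe (A_51_P116838) was listed at 0 on array 1-1, stood at 5.62 on 1-2 and 7.07 on 2-1, and was listed at 0 on 2-2. Its second probe (A_52_P550629) was listed at 0 on arrays 1-1, 1-2 and 2-1 and stood at 4.31 on 2-2. On each array at most 1 of the probes carried a value, and on array 1-1 neither did. Averaged per array, Dct stood at 0, 2.81, 3.53 and 2.15, a mean of 2.12 ± 1.52 (SD, n = 4), which did not pass (adjusted p = 0.0841). With zeros left out as missing, the mean of 3 arrays was 5.66 and passed (adjusted p = 0.000507). Without array 1-1 alone, the array where Dct was at 0, it was 2.83 and passed (adjusted p = 0.0216). Without array 1-2, 2-1 or 2-2 it did not pass (adjusted p = 0.252, 0.236 and 0.224).

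The same switch between a high value and exact 0 occurred elsewhere on the arrays. Of 874 probes with 1 gene symbol that reached a log2 ratio of 4 (called high here) on any array, 239 (27.3%) were listed at 0 on another. Of 206 genes with 2 probes of which 1 reached 4, 104 had the other probe at 0 on the same array. In 2 of these 206 genes, from 5405 genes with 2 probes in all, the probes changed places. The first was high and the second at 0 on 1 array, and the reverse on another. These were Dct and Zic1, a zinc finger gene named after its values were seen. How many genes had both probes reach 4, as a change of places needs, was not counted. The second Dct probe, at 4.31, passed that limit narrowly.

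Tyr, tyrosinase, the rate-limiting enzyme of melanin synthesis, showed no ratio away from 0. Its probe (A_51_P102311) gave 0.08, -0.17 and 0.16 on the first 3 arrays and an exact 0 on 2-2. The value on 1-2 is one that 213 probes of that array share. The mean was 0.02 ± 0.14 (SD, n = 4; adjusted p = 0.884), at percentile 50.5 of all genes, and its sign turned with centring, with quantile normalization and without array 1-1 or 2-1. Tyrp1, which stabilises tyrosinase and acts on a later intermediate in the mouse, stood at 0.14, 0.84, 0.70 and 0.17, all its own values. It was above 0 on 4 of 4 arrays, with 1-2 and 2-1 above the others. Its mean of 0.46 ± 0.36 (SD, n = 4), a 1.38-fold ratio, did not pass (adjusted p = 0.102).

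The probes of Tyr, Tyrp1 and the first Mitf probe are alike in one further respect. Their deposited values carry no more than 2 decimals on all 4 arrays, as those of 248 of 41174 probes do, while most others carry 3. How these rows were made is not given in the sources used here.

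Pmel, the melanosome matrix protein, had a value of its own on every array. Its probe (A_51_P208145) stood at 3.30, 1.87, 2.58 and 1.83 on arrays 1-1, 1-2, 2-1 and 2-2. Counting this probe, 15, 6, 4 and 15 probes of these arrays held the same values. All 4 values lay above 0, and array 1-1, where Dct was at 0, had the highest. The mean of 2.40 ± 0.69 (SD, n = 4), 5.26-fold, passed (adjusted p = 0.00777 among genes) and lay at percentile 95.4 of all genes. Tested as a single probe it lost its call without array 2-1 (adjusted p = 0.0596), and against a 2-fold change by limma's treat its adjusted p was 0.064 as a gene.

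The melanosome transporters gave no usable ratio. Oca2, the gene mutated in pink-eyed dilution mice, stood at 0.16 on array 1-1, a value shared by 2785 probes there, and was listed at 0 on the other 3 (probe A_51_P162144). Slc45a2, the gene mutated in underwhite mice, gave an exact 0 on array 1-1, then 1.41 on 1-2, 0.63 on 2-1 and 0.39 on 2-2 (probe A_51_P508693). Those 3 values were shared by 149, 169 and 1551 probes of their arrays. Neither gene passed (adjusted p = 0.474 and 0.169), and no difference can be read from either.

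Mitf, the master factor of the lineage, was above the reference by 1 of its 2 probes. The first probe (A_51_P364274) stood at 1.00, 1.55, 1.69 and 1.59, with array 1-1 lowest. Its mean of 1.46 ± 0.31 (SD, n = 4), 2.75-fold, passed among the 32664 probes tested (adjusted p = 0.00459). The second probe (A_52_P100140) stood at 0.50, 0.40 and 0.44 and was listed at 0 on array 2-2; these values were shared by 1625, 1927 and 1684 probes of their arrays. The average of both was 0.90 ± 0.15 (SD, n = 4) with an adjusted p of 0.00198, under the minimum size of 1, so Mitf did not count among the 3 genes. The first probe alone lost its call when arrays of the same first title number were averaged (adjusted p = 0.056), and against a 2-fold change (adjusted p = 0.153).

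Sox10, the neural crest factor, likewise rested on 1 probe. The first (A_51_P346704) stood at 2.63, 2.94, 2.78 and 3.53, and the second (A_52_P192625) was listed at 0 on all 4 arrays. Values of the first were held by 13, 10, 5 and 9 probes of their arrays, counting itself. The first probe's mean was 2.97 ± 0.39 (SD, n = 4), 7.84-fold (adjusted p = 0.00159 among probes). Averaged with the zeros of the second, Sox10 stood at 1.49 ± 0.20 (SD, n = 4) and passed as a gene (adjusted p = 0.00121). The gene's fitted value is thus lowered by a probe without a value.

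Ednrb had the highest mean of the 9 genes with zeros kept. Without exact zeros Dct was higher, at 5.66 against 3.61. That Dct mean joins its first probe on arrays 1-2 and 2-1 with its second on 2-2, so the 2 means are not like for like. The second Ednrb probe (A_52_P577662) stood at 3.92, 4.09, 4.51 and 3.32, a mean of 3.96 ± 0.49 (SD, n = 4) or 15.6-fold (adjusted p = 0.0014 among probes). The first Ednrb probe (A_51_P262964) gave an exact 0 on array 1-1 but 2.88, 3.36 and 2.84 elsewhere. Counting this probe, 26, 14 and 17 probes held those values. For the second probe the counts were 4, 4, 7 and 1. With its zero the first probe did not pass (adjusted p = 0.0861). Without array 1-1, which held that zero, its mean was 3.03 and it passed (adjusted p = 0.00699). Without array 1-2, 2-1 or 2-2 it did not pass (adjusted p = 0.268, 0.265 and 0.252). The gene averaged 3.12 ± 0.84 (SD, n = 4; adjusted p = 0.00646), at percentile 97 of all genes. Where both Ednrb probes had values of their own, the second was the higher on each array.

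Of the 13 probes, 4 were higher by the probe test (Pmel and 1 probe each of Mitf, Sox10 and Ednrb), against 10.5% of all probes tested, and none was lower, against 8.22%. These 4 belong to the 5 pigment probes with their own value on every array, and the other one is Tyrp1. The share of higher probes among all probes with their own value on every array was not counted, and the 10.5% is no measure of it. With exact zeros left out, 5 of the 8 genes still tested were higher (Ednrb, Sox10, Pmel, Dct and Mitf), against 16.8% of the 16687 genes tested that way.

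Relatives and partners of the pigment genes set these ratios in context. Sox9, the SoxE factor of hair follicle and cartilage cells, was higher in skin like Sox10 (2.02 ± 0.11, SD, n = 4; adjusted p = 0.000328), and Sox8 was at 0.12 ± 0.22. Of the relatives of Mitf, Tfeb, a lysosomal regulator, was higher (1.17 ± 0.51, SD, n = 4; adjusted p = 0.0239), with 1.93 on array 2-2 and 0.97, 0.81 and 0.97 on the others. Tfe3 was at 0.12 ± 0.13 and Tfec at -0.06 ± 0.20. In the endothelin system, 2 of 6 genes measured were higher, against 11% of all genes: Ednrb, and the ligand Edn2 (1.33 ± 0.39, SD, n = 4, adjusted p = 0.00794). The ligand Edn3, the known partner of Ednrb in melanoblasts, was at 0.08 on array 1-1 and at exact 0 elsewhere. Both probes of Edn3, Sox8 and Tfec carried only zeros or shared values on all arrays, as did 2 of 3 Tfe3 probes. Such values are not specific to a probe, so no difference can be read from Edn3, Sox8 or Tfec. Edn1 was at 0.53 ± 0.28, and the converting enzymes Ece1 and Ece2 were at 0.92 ± 0.08 (adjusted p = 0.000661, from 1 probe at 1.84 and 1 at 0) and -0.55 ± 0.36, all under the minimum size.

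**Figure D2:**
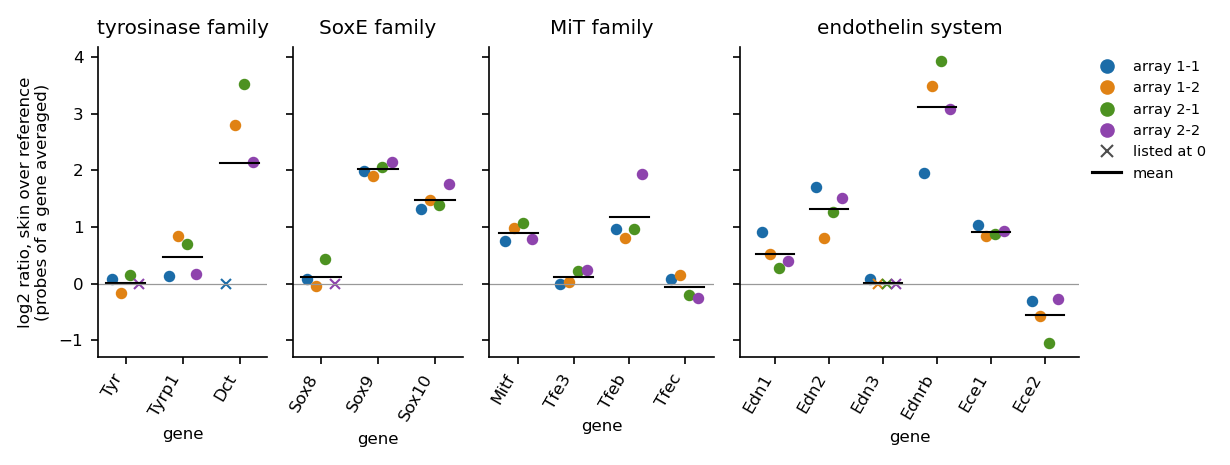
Log2 ratio of skin over reference (vertical axis, probes of a gene averaged) on each of the 4 arrays for the genes of the tyrosinase, SoxE and MiT families and the endothelin system; bars are means and crosses values listed at 0. Sox9, Sox10, Ednrb, Edn2 and Tfeb passed the test, and Tyr, Sox8, Tfe3, Tfec and Edn3 lie near 0. Sox8, Tfec and Edn3 rest only on zeros and shared values.

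Among 26 other genes used by melanocytes, 4 passed as higher and 3 as lower, numbers near the shares over all genes (11% and 7.51%), and the median of their means was 0.62. The highest were Cdh1, E-cadherin, which holds melanocytes to keratinocytes but is chiefly a keratinocyte gene (6.55 ± 0.21, SD, n = 4; adjusted p = 0.000239), and Apoe, an apolipoprotein that Pmel fibril formation uses and macrophages make (6.14 ± 0.55, SD, n = 4; adjusted p = 0.000606). Rab32, a Rab GTPase that brings Tyr and Tyrp1 to melanosomes, was at 1.06, and Syngr1 at 1.00; both are named because they complete the count of 4. The 3 lower genes were Gpnmb, a relative of Pmel (-2.07 ± 0.46, SD, n = 4, adjusted p = 0.00399), the melanosome exchanger Slc24a5 (-2.06) and Pax3, an activator of Mitf (-1.03). The last 2 were named after their values were seen. Gpnmb had probes at -3.35 and -0.80, and the one at -0.80 held only shared values on all arrays. The Pax3 probe at -0.30 held only zeros or shared values, and the other was at -1.77. Gpnmb and Pmel, close relatives in sequence, thus lay on opposite sides of the reference, Gpnmb below 0 and Pmel above 0 on 4 of 4 arrays. Kit, the receptor for stem cell factor, was at 0.20, 1.13, 1.62 and 0.56 and did not pass; it too was named after its values were seen.

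Of 33 genes measured that build and move melanosomes, 3 were higher, 2 lower and 28 did not pass, with a median mean of 0.20. These counts are also near the shares over all genes, 11% higher and 7.51% lower. Rab38, which acts with Rab32 in delivering Tyr and Tyrp1, gave 4.10 on array 1-1 and 3.96 on 2-2 but an exact 0 on 1-2 and 2-1 (adjusted p = 0.229). Where the first Dct probe had values Rab38 was at 0, and the reverse. Mreg, melanoregulin, gave an exact 0 on array 1-1 and 2.11, 2.35 and 1.73 elsewhere (adjusted p = 0.0759), the arrays on which Dct also had a value. Snapin, a subunit of the BLOC-1 complex, was higher (1.23 ± 0.29, SD, n = 4; adjusted p = 0.00471), as were Bloc1s1 (1.20) and Rab32; Bloc1s2, another subunit, was lower (-1.05 ± 0.14, SD, n = 4; adjusted p = 0.00121), as was Ap3s1, an AP-3 adaptor subunit (-1.02). Bloc1s1 and Ap3s1 are named because they complete these counts.

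**Figure D3:**
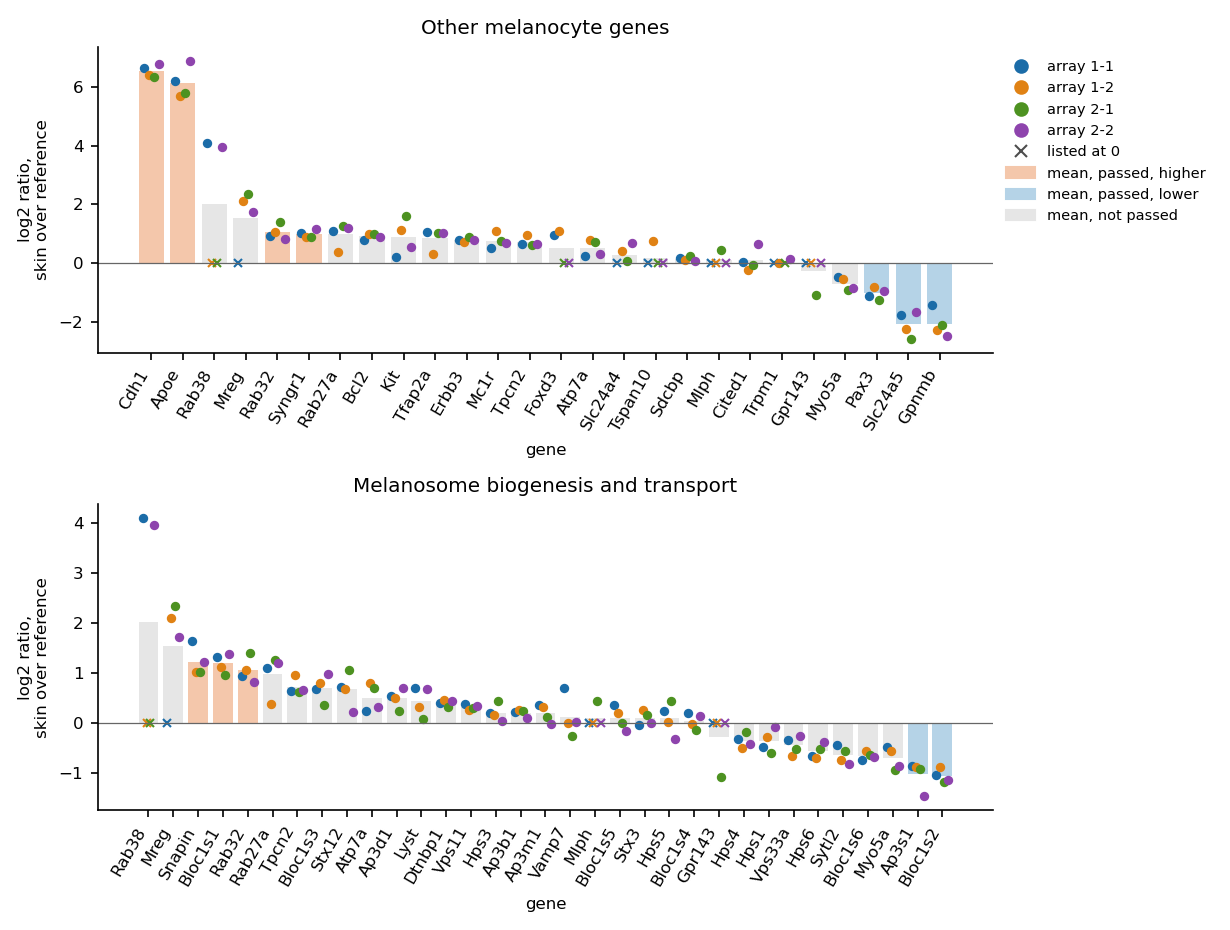
Log2 ratio of skin over reference (vertical axis) for 26 other genes of melanocytes and 33 genes of melanosome biogenesis and transport, ordered by mean (bars, coloured where the test was passed), with 1 point for each array and crosses for values listed at 0. Most genes of melanosome transport lie within 1 log2 unit of the reference, and Rab38 is at about 4 on 2 arrays and at 0 on the other 2.

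A further 12 genes code for signals that reach melanocytes from other skin cells, or for proteins that modify or relay them. Of these, none was higher and 1 was lower, against 11% and 7.51% of all genes. The lower one was Nrg1, neuregulin 1 (-1.93 ± 0.53, SD, n = 4; adjusted p = 0.00659, with 5 probes between -2.98 and -0.27). Kitl, the ligand of Kit that dermal and epidermal cells make, was at -0.56 ± 0.09, and Mgrn1, a ubiquitin ligase that tempers melanocortin signalling, at 0.55 ± 0.13; both had small adjusted p-values (0.00202 and 0.00474) but stayed under the minimum size.

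Hair genes differed between arrays. The share of all genes above 3 on each array was not counted. Of 23 hair genes measured, 6 stood above 3 on array 1-1, against 1, 1 and 2 on arrays 1-2, 2-1 and 2-2. Several keratins of the growing hair were among them. Krt71, of the inner root sheath, was at 6.21 there and at 1.11, 1.58 and 0.69 on the others. Its values on arrays 1-2 and 2-2 are shared ones, not specific to the probe. Krt27 was at 5.01 on array 1-1, at 0.29 on array 1-2 and at exact 0 on 2-1 and 2-2. At least 1 of the Krt27 values other than 0 is shared too. Hair keratins are much alike in sequence, so these are uncertain as separate measurements. Krt32, a hair cuticle keratin, ran the other way, at exact 0 on array 1-1 and at 4.21, 4.55 and 3.48 on the others (adjusted p = 0.0748). Of the 23, Gata3, an inner root sheath factor, was the only one higher (3.07 ± 0.22, SD, n = 4; adjusted p = 0.00044). Padi3 (-1.66 ± 0.89, SD, n = 4, adjusted p = 0.0409) and Lef1 (-1.28 ± 0.18, adjusted p = 0.00138, probes between -2.12 and 0.07) were lower. Over all genes, 11% were higher and 7.51% lower. Krt27 and Lef1 were named after their values were seen. Among the pigment genes, array 1-1 had the lowest value for 6 of 9 (Dct, Tyrp1, Mitf, Sox10, Slc45a2 and Ednrb), counting zeros, and the highest for 2, Pmel and Oca2. Dct, Slc45a2 and the first Ednrb probe were listed at 0 there. The second Ednrb probe was at 3.92 on array 1-1 and lowest on 2-2, at 3.32. How many of all genes had their lowest value on array 1-1 was not counted. Array 1-1 was also the array with the most zeros, 29.1%. The part that hair genes or zeros play in the spread of the pigment genes was not tested.

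**Figure D4:**
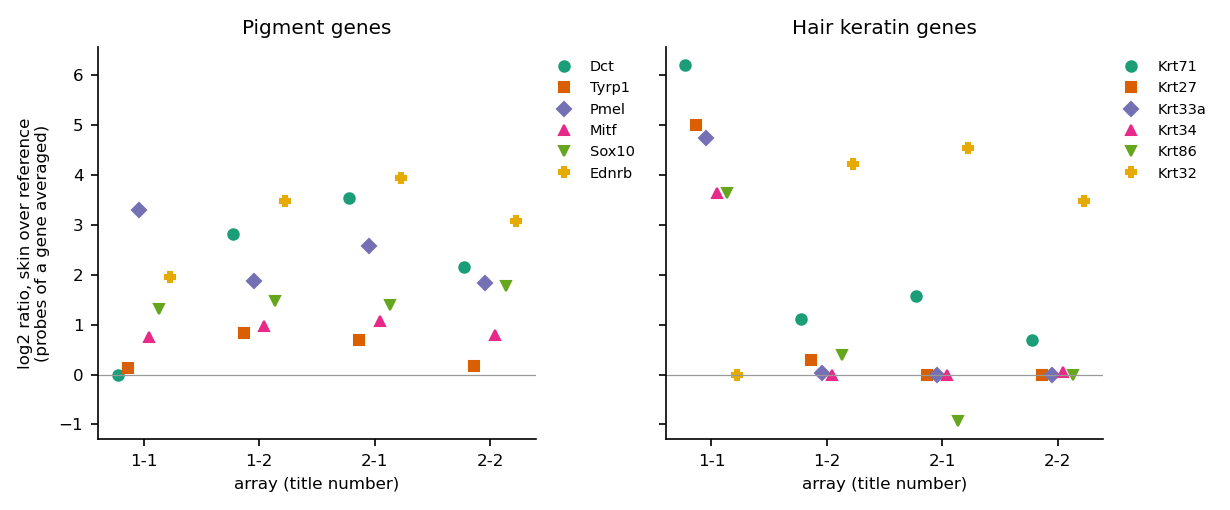
Log2 ratio of skin over reference (vertical axis, probes of a gene averaged) of 6 pigment genes (left) and 6 hair keratin genes (right) on each of the 4 arrays (horizontal axis, arrays have no order). Dct is at 0 and Pmel at its highest, 3.30, on array 1-1, where Krt71 stands at 6.21 and Krt32 is listed at 0. The genes shown are a selection. Of the measured hair keratins not shown, Krt25, Krt31, Krt35 and Krt82 were at exact 0 on array 1-1 and Krt33b at 2.36.

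Genes of other cell types that share Sox10, Ednrb or Mitf with melanocytes were also measured. The counts below stand beside 11% higher and 7.51% lower over all genes. Of 10 Schwann cell genes measured, 6 were higher, with a median mean of 1.44; Sox10 is one of them. S100b was at 3.57 ± 0.35 and the myelin gene Mbp at 2.30 ± 0.43 (SD, n = 4, adjusted p = 0.000681 and 0.00256). Gfra3 gave 4.01 and 3.72 on arrays 1-1 and 1-2 but exact zeros on 2-1 and 2-2. Cdh19 was at -0.04 ± 0.14, and both its probes carried only zeros or shared values. Of 12 endothelial genes, 8 were higher, with a median of 2.27, led by Esam (4.38 ± 0.39) and Tek (2.78 ± 0.26), while Cldn5, at 4.75, 6.09 and 6.77 on arrays 1-1, 1-2 and 2-1 and at exact 0 on 2-2, had the highest mean of the list and did not pass (adjusted p = 0.0774). Among 10 genes of mast cells 4 passed as higher (median 0.71), led by Cpa3 (5.13 ± 0.52), Cma1 (4.24 ± 0.74) and Mcpt4 (4.14 ± 0.38), while 6 did not pass, among them Gata2 at -0.71 ± 0.21. Of 10 macrophage genes, 8 were higher, with a median of 4.54 (C1qb 6.04 ± 0.68, C1qa 5.14 ± 0.52, Cd163 5.10 ± 0.82), and Cd14 was lower (-1.12 ± 0.13). Probes disagreed for Mbp (means of 1.15 to 4.54), Tek (1.37 and 4.18) and Cma1 (2.67 and 5.82). On the arrays the list medians ran from 1.14 to 1.42 for Schwann cells, 1.88 to 2.16 for endothelium, 0.50 to 1.40 for mast cells and 3.19 to 4.82 for macrophages. The pigment genes' own median was 0.16, 1.41, 1.06 and 0.80 on arrays 1-1, 1-2, 2-1 and 2-2. On arrays 1-1 and 1-2 this median is the value of Oca2 and of Slc45a2, each shared by at least 100 probes there. How much of the Sox10, Ednrb and Mitf ratios comes from these cells was not tested.

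**Figure D5:**
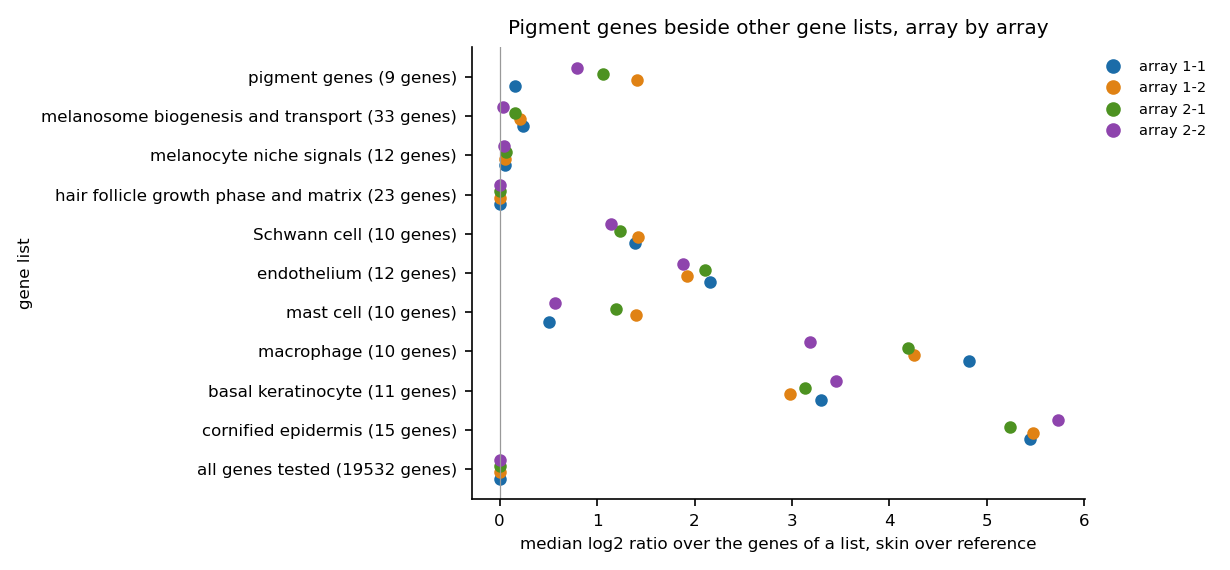
Median log2 ratio of skin over reference (horizontal axis) over the genes of each list (vertical axis), 1 point for each of the 4 arrays. The pigment genes run from 0.16 to 1.41, below the endothelial list on every array and above the median of all genes, which is 0. Both ends are shared values, of Oca2 on array 1-1 and of Slc45a2 on array 1-2. On array 1-1 the median of all probe values other than 0 was also 0.155.

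Keratinocyte genes stood above the reference, and those of dermal cells were mixed. Over all genes, 11% were higher and 7.51% lower. Of 11 basal keratinocyte genes, 10 were higher (Perp 5.58 ± 0.06, Col17a1 5.30 ± 0.55, Krt5 4.68 ± 0.46), and of 10 dermal papilla and fibroblast genes 4 were higher (Lum 6.40 ± 0.08, Dpt 4.65 ± 0.51, Dcn 2.27 ± 0.44) and 1 was lower, Twist2 (-1.12 ± 0.16); the other 5 did not pass, and the median of the 10 means was 0.15. The cornified genes, led by Kprp, Flg2 and Lor, had fixed the direction, and Flg was listed at 0 on all arrays.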

How the data were processed

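Skin RNA was prepared with a Qiagen fibrous-tissue kit and labelled by an Agilent Quick-Amp protocol, per the labels. Each deposited value is a log ratio of both channels for 1 probe on 1 array, taken here as log2. How the authors corrected, normalized and oriented it, and the log base, is not given in the sources used here. For the base, all pairs of the 40 commonest values of each array were compared, 3120 pairs in all. Of these, 21 differed by what the square of a ratio of 2 gives in log2 (within 0.001). In natural logs 2 pairs did, and in log10 3. For the square of a ratio of 1.5, 15 pairs did in log2, 2 in natural logs and 3 in log10. The median of each deposited column was 0, which lies among the zeros, so how arrays were centred stays unknown; signs were turned as the report describes.

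Of 41174 probes, 32664 have 1 gene symbol in the platform annotation, 45 have several and 8465 none. All 13 pigment probes matched a RefSeq gene of the same symbol by Entrez ID. Probes of a gene were averaged, zeros kept. Means were tested against 0 with limma 3.58.1 in R 4.3.3 (lmFit, eBayes, two-sided), Benjamini-Hochberg adjusted over 19532 genes or 32664 probes; the code was tested on simulated data. The scale is log2 and n = 4 arrays limit the precision. Arrays correlated at r = 0.833 to 0.897 over named probes. Figures used matplotlib 3.10.9.

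The pigment genes and all lists were chosen with earlier results of these data known. Named were every pigment probe, all genes of lists of 7 or fewer, and from other lists the 3 means farthest from 0 and the most opposite. The planned comparison of tyrosinase family proteins was not run. Alternatives covered zeros, shared values, filters, centring, scaling, test, title numbers and each array left out.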

Additional observations from a re-analysis of the deposited data

Results flagged for a closer look

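Among 72 sets of 4 array values (the pigment probes, the pigment genes and the other named genes), 9 had 1 array far from the other 3 by Dixon's ratio. Chance passes that limit in about 5% of sets when values are continuous. Beside 3 exact zeros any other value passes, whatever its size, as for the second Dct probe, Oca2 and Edn3. The count of 9 can therefore not be set against that 5%. The arrays singled out in pigment probes were 2-2 for the second Dct probe, at 4.31 against 3 zeros, and 1-1 for the first Ednrb probe, listed at 0 against 2.84 to 3.36. Array 1-1 stood apart for Oca2, at 0.155 as a probe and as a gene, which is a shared value against 3 zeros. Edn3 stood at 0.078 on array 1-1 against 3 zeros. Krt71 was at 6.21 on array 1-1, Tfeb at 1.93 and C1qb at 7.05 on array 2-2, and Perp at 5.66 on array 2-1. In Perp the gap is small in size, since its SD was 0.06.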

How the results depend on the processing

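Over all genes, the counts moved by over 1.5 times against a 2-fold change with limma's treat (1338 higher and 694 lower) and, for lower genes, when the probe farthest from 0 stood for each gene (2200). The count of pigment genes higher moved from 3 to 5 without exact zeros and to 5 without zeros and shared values; under the other alternatives it was between 2 and 4. The count of pigment probes higher fell from 4 to 2 with treat. No pigment gene was lower under any alternative run. Ednrb and Sox10 as genes passed under all 15 alternatives, with means of 2.84 to 3.96 and 1.39 to 2.97, and Pmel under 14 of 15. The sign of Tyr, which passed nowhere, turned with arrays centred on their values other than 0 (-0.059) and with quantile normalization (-0.003), and leaving out 1 array gave -0.03 to 0.08. Oca2 turned to -0.038 with that centring. Dct passed under 7 of 15 alternatives. Title numbers used as a random block had a correlation of -0.311 (first) and -0.263 (second) over genes, so arrays sharing a number were not more alike. No paired analysis was possible because there is 1 group. No signal intensities were used here, so how far a zero or a shared value reflects weak signal was not tested.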
